A study of Mus musculus with 179 samples.

Results

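The transcripts of 10 adhesion receptor genes were followed across single cells of mouse pancreatic organoids: the integrin α chains Itga2, Itga3, Itga6 and Itgav, the integrin β chains Itgb1, Itgb4, Itgb5 and Itgb6, the dystroglycan gene Dag1, and Cd151, a tetraspanin that binds laminin-binding integrins. They were taken as a list of names from the table of unique molecular identifier (UMI) counts, and all 10 were found among its 32100 gene identifiers. The table holds single cells of 1 group, every cell being its own sample, titled Acinar with a number. They come from exocrine pancreas of wild type C57BL6 mice, labelled as acinar cells, and were grown for 9 days as organoids inside Matrigel, a gel of basement membrane proteins rich in laminin. Smart-seq3, which covers whole transcripts and tags molecules with UMIs, was used to read their RNA. No animal, culture or plate is named for any cell, so cells are not replicates here, and every value below describes these cells without a test.

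An integrin is a pair of 1 α and 1 β chain that spans the membrane, binds matrix outside the cell and couples to the actin or keratin skeleton inside it. The partners decide the ligand: α2β1 binds collagens, α3β1, α6β1 and α6β4 bind laminins, and pairs of αv bind ligands with an Arg-Gly-Asp motif such as vitronectin, fibronectin and the latent form of TGF-β, which αvβ6 activates in epithelia. The α6β4 pair anchors epithelial cells to their basement membrane through hemidesmosomes, dystroglycan is a laminin and agrin receptor that is cut into 2 subunits and coupled to dystrophin or utrophin, and CD151 sits beside α3β1 and α6 integrins in the membrane. A transcript in a cell does not show that the protein pair was made.

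Cells held a median of 165267 UMIs, with a range of 3258 to 329522. Shares of cells are therefore given after each cell was thinned to 40000 UMIs by random draw, which kept 89.9% of the cells and left out 18 shallower ones. Levels are CPM, a gene's UMIs scaled to the total of the cell or of the pooled cells, pooled over cells with exact 95% Poisson intervals, and shares carry exact 95% binomial intervals, both covering counting error only. The acinar label was not borne out by most of its defining markers: the 12 acinar genes summed to a median of 122.4 CPM per cell. Ptf1a, the acinar transcription factor, was at 0 in all cells but 1. Enzyme transcripts were still widespread for Ctrb1, with a UMI in 93.2% of thinned cells, and less so for Prss2 at 42.2% and Clps at 37.9%. By contrast, 8 genes of duct and simple epithelium summed to a median of 15048 CPM. Cells were classed in 2 ways here. In 6 cells 10 fibroblast genes summed to between 6314 and 13692 CPM, against at most 302 CPM in any of the other cells, and these are called fibroblast-rich; in Acinar52 and Acinar55 the acinar genes summed to 219594 and 21604 CPM. Acinar155 lay just under the line of 10000 CPM of acinar genes at 9907. Other lists had extreme cells too, which were given no class. The highest cell held 113122 CPM of 7 genes of gastric pit cells, against a median of 1139. For genes of endocrine cells the highest was 9227 CPM, against a median of 40.1.

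Reference promoters are shown for Itga2, Itga3 and Itgb6, whose transcripts varied together over cells, and for Dag1, which varied with none of them. Each window runs from 250 bases before to 50 bases after an annotated start in RefSeq (build GRCm38.p6), on the strand of the gene, here the minus strand in every case, and for Itga3, Itgb6 and Dag1 it is the first of 2 listed starts: Itga2 at chr13:114932051-114932350, Itga3 at chr11:95076665-95076964, Itgb6 at chr2:60722554-60722853 and Dag1 at chr9:108263909-108264208. Capitals mark matches, on either strand, to a GC box (GGGCGG), an AP-1 motif (TGANTCA) or a TEAD motif (GGAATG).
Itga2: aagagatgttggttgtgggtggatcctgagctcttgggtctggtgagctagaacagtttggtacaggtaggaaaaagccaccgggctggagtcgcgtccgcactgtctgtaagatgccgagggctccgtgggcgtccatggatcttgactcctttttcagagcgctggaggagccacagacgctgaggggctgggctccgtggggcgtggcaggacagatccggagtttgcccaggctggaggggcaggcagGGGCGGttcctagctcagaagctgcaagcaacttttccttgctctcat
Itga3: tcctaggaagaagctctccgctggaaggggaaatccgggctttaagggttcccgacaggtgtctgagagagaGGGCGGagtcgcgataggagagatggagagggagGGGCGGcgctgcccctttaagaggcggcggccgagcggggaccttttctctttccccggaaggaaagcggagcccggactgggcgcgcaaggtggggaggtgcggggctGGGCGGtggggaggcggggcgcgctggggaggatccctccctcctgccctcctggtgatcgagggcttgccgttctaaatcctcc
Itgb6: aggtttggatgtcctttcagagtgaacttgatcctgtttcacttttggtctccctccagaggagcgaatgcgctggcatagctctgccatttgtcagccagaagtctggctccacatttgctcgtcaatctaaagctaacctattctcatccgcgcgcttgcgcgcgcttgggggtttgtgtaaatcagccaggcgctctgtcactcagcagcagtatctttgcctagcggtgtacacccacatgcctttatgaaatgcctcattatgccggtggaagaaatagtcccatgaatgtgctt
Dag1: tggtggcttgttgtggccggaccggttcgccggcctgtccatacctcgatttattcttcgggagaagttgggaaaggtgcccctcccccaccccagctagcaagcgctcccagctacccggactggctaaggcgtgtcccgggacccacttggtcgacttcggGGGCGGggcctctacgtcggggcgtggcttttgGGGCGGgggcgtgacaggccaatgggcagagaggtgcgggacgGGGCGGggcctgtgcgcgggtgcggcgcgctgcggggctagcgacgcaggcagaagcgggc

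The GC content of these windows was 59.3% for Itga2, 66.7% for Itga3, 50.3% for Itgb6 and 69.7% for Dag1, against a median of 52.7% over 32851 RefSeq promoters. The Itga2 window had 1 GC box, the Itga3 and Dag1 windows had 3 each, and the Itgb6 window had none of the motifs. A GC box occurred in 35.7% of all promoters, an AP-1 motif in 7.81% and a TEAD motif in 14.7%. RefSeq entries were found for 8 of the 10 genes, not for Itga6 and Itgb4. Outside the windows shown, the Itgb1 window held 1 GC box and 1 TEAD motif, and that of the second Itga3 start held 1 GC box and 1 AP-1 motif. The shown windows of Itga2, Itga3 and Itgb6 had no motif of this set in common. A match is a run of letters and not a bound site, and nothing follows from its presence or absence here about any factor.

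Together the 10 genes held 1886 CPM (1870 to 1902), with a median of 1741 CPM per cell. The sum was lowest in Acinar171 at 288 CPM, a cell of only 6936 UMIs, and highest in Acinar155 at 4912 CPM. All 10 genes had a UMI in at least 65.2% of thinned cells, whereas 25.4% of the 30474 genes with any UMI were detected in at least 1 in 2 thinned cells. A thinned cell carried UMIs of all 10 genes in 51 cells (31.7%, 24.6 to 39.5) and of 9 genes in 73 cells (45.3%, 37.5 to 53.4), and no cell had fewer than 5.

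By pooled UMIs the order was Dag1, Itga2, Itga3, Itgb1, Itgb4, Itga6, Cd151, Itgb6, Itgb5 and Itgav. Their Poisson intervals did not overlap except those of Itgb5 (50.58 to 56.04 CPM) and Itgav (46.77 to 52.02 CPM). Per length of the annotated exons, from read counts, Itgb1 came first at 62.2 RPKM (reads scaled to library size and exon length), ahead of Cd151 at 50.7 and Dag1 at 50.6, and Itgav stayed last at 4.88. Cd151, with the shortest exon set at 2741 bases, thus moved from the seventh place to the second. The order of Itga3, Itga2, Itgb4, Itga6 by RPKM was 46.01, 38.3, 27.9 and 17.9, and Itgb5 and Itgb6 stood at 13.4 and 11.5. Statements on which gene is the more abundant therefore hold only for the scale named with them.

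Among the α chains, the transcripts of the collagen and laminin receptors were found in nearly every cell, while Itgav was low. Itga2 (chromosome 13, 114833081 to 114932100, GRCm38) stood at 290 CPM (283 to 296), with a UMI in 98.1% of thinned cells (94.7 to 99.6). In the cells with at least 40000 UMIs it ran from 0 through a median of 249 to 1609 CPM, and the highest cells were Acinar155, Acinar81 at 1231 and Acinar156 at 914 CPM. Its single 0 among these cells, the fibroblast-rich ones aside, was in the enzyme-rich cell Acinar52. Itga3 (chromosome 11, 95044474 to 95076801), the α chain of the main epithelial laminin receptor, stood at 270 CPM (264 to 276) with a UMI in 96.9% of thinned cells. It ranged from 0 through a median of 234 to 1162 CPM in these cells, the top being Acinar16, Acinar93 at 1070 and Acinar183 at 879 CPM. Itga3 was thus present at like breadth to Itga2, with other cells at its top.

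Itga6 (chromosome 2, 71745616 to 71858416), which pairs with either β1 or β4, stood at 187.5 CPM (182.4 to 192.6), with a UMI in 96.9% of thinned cells. It ran from 7.48 through a median of 161.2 to 743 CPM, with Acinar138, Acinar36 at 705 and Acinar155 at 627 CPM on top. Itgav (chromosome 2, 83724397 to 83806916), the α chain of the Arg-Gly-Asp receptors, stood at 49.3 CPM with a UMI in 74.5% of thinned cells (67.1 to 81.1). It reached 294 CPM in Acinar156, 240 in Acinar143 and 225 in Acinar72, from a median of 34.6. The median thinned cell held 1 Itgav UMI, so its share depends on depth, and it was 89.4% of all cells before thinning. Of the exon bases of Itgav, 634 overlap Gm13684 on the other strand, and the sources used here do not give whether strand was used in counting.

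Among the β chains, Itgb1 was even over cells, Itgb4 and Itgb6 were not, and the uneven spread of Itgb5 rested on few cells. Itgb1 (chromosome 8, 128685654 to 128733200), the common β chain that pairs with all 4 of these α chains, stood at 247 CPM (241 to 253) and had a UMI in 100% of thinned cells (97.7 to 100). It ran from 64.9 through a median of 227 to 742 CPM, and its 2 highest cells, Acinar6 and Acinar44 at 708 CPM, were fibroblast-rich. The third was Acinar183 at 590 CPM, which was also among the 3 highest for Itga3.

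Itgb4 (chromosome 11, 115974709 to 116008412), the hemidesmosomal β chain with a long tail that reaches plectin, stood at 211 CPM (206 to 217), with a UMI in 95.7% of thinned cells. It ran from 0 through a median of 180 to 755 CPM, with Acinar65, Acinar55 at 708 and Acinar175 at 688 CPM on top. Acinar55 is enzyme-rich, and its Itga6 was 150.6 CPM, close to the median of all cells. Of the exon bases of Itgb4, 537 overlap a long noncoding RNA on the other strand, B230344G16Rik, which has no entry in the table.

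Itgb6 and Itgb5, the αv partners, were low in most cells and high in a few. Itgb6 (chromosome 2, 60598292 to 60722643), an epithelial chain, stood at 83.1 CPM (79.8 to 86.6) with a UMI in 74.5% of thinned cells. Its median of 52.5 CPM was far under its highest cells, Acinar71 at 562, Acinar155 at 543 and Acinar49 at 449 CPM, and the 18 richest cells held 40.9% of its UMIs. Itgb5 (chromosome 16, 33829665 to 33949338), a β chain of vitronectin receptors found in many cell types, stood at 53.3 CPM with a UMI in 65.2% of thinned cells (57.3 to 72.5). Its median was 31.5 CPM against 796 in Acinar188, 636 in Acinar182 and 554 in Acinar58, and the 18 richest cells held 51.5% of its UMIs.

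**Figure D1:**
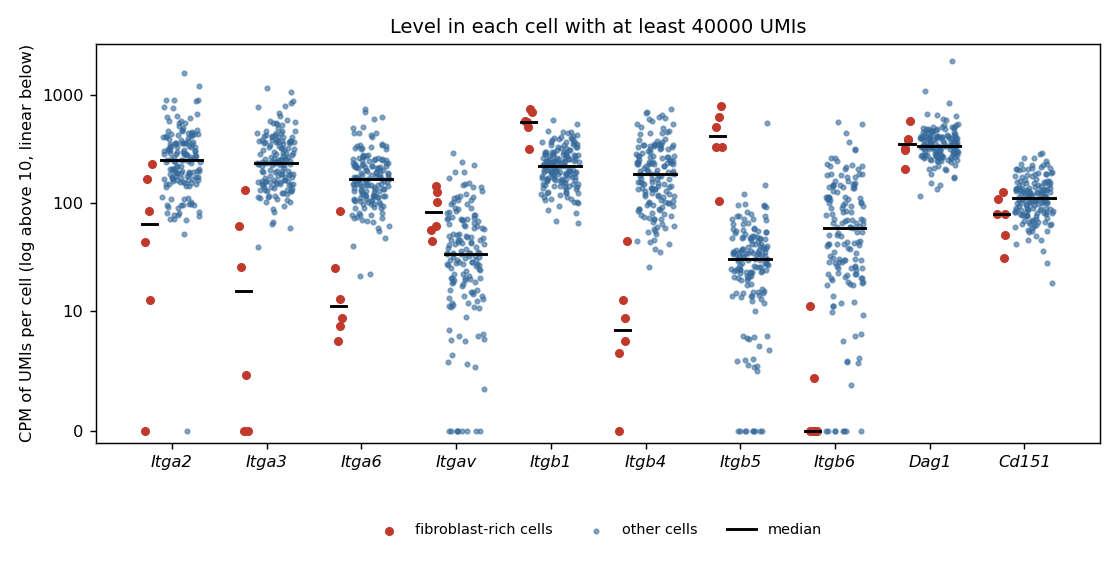
CPM of each gene in each cell with at least 40000 UMIs (axis logarithmic above 10 and linear below; red points, 6 fibroblast-rich cells; blue points, other cells; black lines, medians). Itgb5 and Itgb1 sit high and Itgb4, Itgb6, Itga6 and Itga3 low in the fibroblast-rich cells, while Dag1 has nearly the same median in both, 356 and 341 CPM.

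How unevenly a gene was spread over cells was measured as the variance over the squared mean, less its Poisson share, divided by the median of 100 genes of like mean, so that 1 is typical; the 90th percentile over 7278 genes was 5.46. Itgb5 stood at 18.9 and Itgb6 at 6.96. Itga2, Itgb4, Itga3, Itga6 and Itgav followed at 4.44, 4.16, 3.60, 3.36 and 3.18, Dag1 at 2.30, and Itgb1 and Cd151 were near the typical gene at 1.27 and 0.747. The value of Itgb5 rested on few cells: without the 6 fibroblast-rich cells it was 3.90, and without Acinar58 as well it was 0.936. The value of Itgb6 without the fibroblast-rich cells was 6.83, and without its highest cell, Acinar71, as well it was 5.21.

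Transcripts of both chains of the β1 laminin and collagen receptors were found together in nearly every thinned cell. The share with at least 1 UMI of both chains was 98.1% for Itga2 with Itgb1, 96.9% for Itga3 with Itgb1 and 96.9% for Itga6 with Itgb1. Since Itgb1 was found in every cell, these shares are those of the α chains alone. Itga6 with Itgb4, the hemidesmosomal pair, was found in 93.8% (88.87 to 96.98).

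The αv pairs were less common. Itgav with Itgb1 was found in 74.5% of thinned cells, Itgav with Itgb6 in 54.7% (88 cells, 46.6 to 62.5) and Itgav with Itgb5 in 47.2% (76 cells, 39.3 to 55.2). Finding a β partner did not go with finding Itgav more often. Itgav was found in 73.3% of the 120 cells with Itgb6 (64.49 to 80.99) and in 78.05% of the 41 cells without it (62.4 to 89.4). For Itgb5 the shares were 72.4% of the cells with it (62.8 to 80.7) and 78.6% of the 56 cells without it (65.6 to 88.4). In both cases the intervals overlapped.

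**Figure D2:**
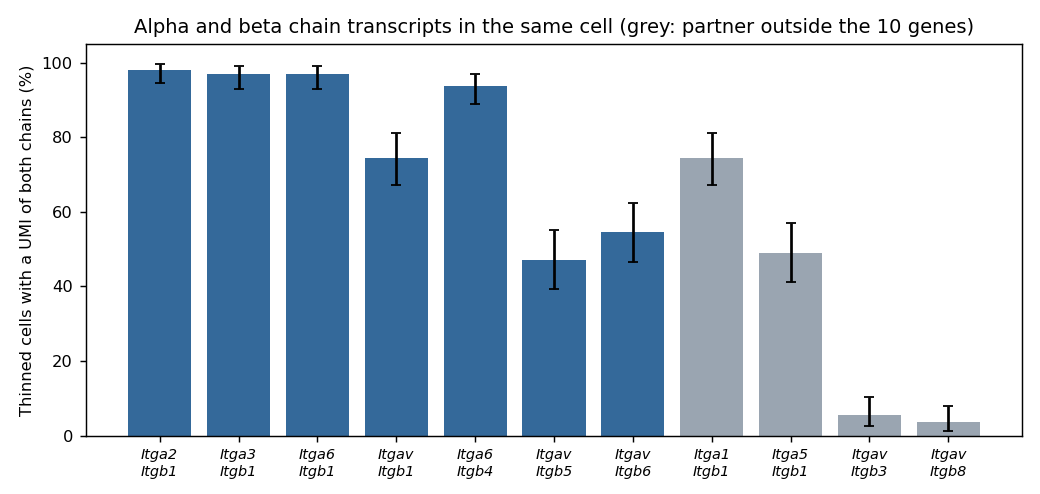
Percent of the thinned cells with at least 1 UMI of both chains, for each pair (bars; error bars, exact 95% binomial intervals; blue, pairs within the 10 genes; grey, pairs with a partner outside them). The 3 pairs of Itga2, Itga3 and Itga6 with Itgb1 and the pair Itga6 with Itgb4 lie above 93%, and the αv pairs with Itgb5 and Itgb6 near 50%.

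Of the 7 pairs, a thinned cell held 5.62 on average. All 7 were found in 52 cells (32.3%, 25.2 to 40.1), 6 in 49 cells, 5 in 12, 4 in 44, 3 in 3 and 2 in 1. The low count at 5 goes back to Itgav, since all 3 αv pairs are lost together where it has no UMI: 41 of the 44 cells with 4 pairs had the 4 pairs without αv and lacked all 3 with it. In 32 cells only Itgav with Itgb5 was missing, in 14 only Itgav with Itgb6, and in 11 both of these were missing while Itgav with Itgb1 was found. At 2 UMIs of both chains the order of the αv pairs stayed, but the shares fell to 45.3% with Itgb1, 27.95% with Itgb6 and 14.9% with Itgb5, so these shares are bound to the depth of 40000 UMIs. Before thinning, over all cells, they were 89.4%, 82.7% and 82.1%.

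**Figure D3:**
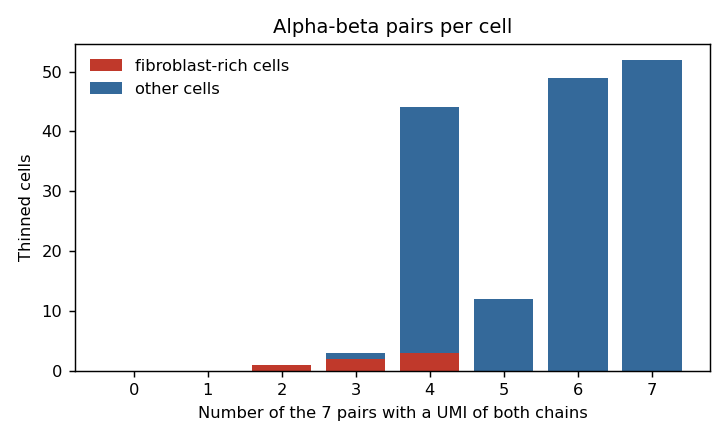
Number of the 7 pairs with at least 1 UMI of both chains (horizontal axis) and number of thinned cells (vertical axis; red, fibroblast-rich; blue, other). All 6 fibroblast-rich cells held 4 pairs or fewer, and the 52 cells with 7 pairs and the 49 with 6 were all other cells.

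By UMIs at each cell's own depth, in the cells with at least 40000 UMIs, α chain transcripts outnumbered those of their shared partner. The 4 α chains together exceeded Itgb1 in 99.4% of the cells of this depth that were not fibroblast-rich (96.5 to 99.98), all but 1, with a median ratio of 3.37. The exception was Acinar52, with 100.1 CPM of Itgb1 against 38.9 of Itga3, 22.2 of Itga6, 5.56 of Itgav and 0 of Itga2. Among the shallower cells, Acinar167, with 19261 UMIs, was also below, with 5 UMIs of Itgb1 against 2 of Itga3 and 1 of Itga6. Against all 4 β chains the α chains were higher in 85.2% of these cells (78.6 to 90.4). These counts are on the UMI scale, with no correction for length. The per-length values that follow can favour short exon sets, and that of Itgb1 has 4081 bases. Per length of the exons, from reads, the 4 α chains pooled to 107.1 RPKM, 1.72 times Itgb1, and exceeded it in 92.3% of the cells that were not fibroblast-rich. Against all 4 β chains the ratio was then 0.932 over all cells and 1.01 without the fibroblast-rich ones, with the α chains higher in 52.9% of the cells that were not fibroblast-rich.

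Itga6 and Itgb4, which pair with each other, were close in summed UMIs but not cell by cell. By UMIs, Itga6 was higher than Itgb4 in 75 cells (46.6%, 38.7 to 54.6), with a ratio of 0.958 in the median cell and quartiles of 0.571 and 1.67. Itga6 was below Itgb1 in most cells, being higher in 57 (35.4%). Itgav fell short of its partners Itgb5 and Itgb6 together, being higher in 18 cells (11.2%), with a median ratio of 0.333. Between those partners, Itgb6 exceeded Itgb5 in 65.2% of the cells that were not fibroblast-rich (57.1 to 72.6). Per length, Itga6 pooled to 0.641 of Itgb4, 0.288 of Itgb1 and was higher than Itgb1 in 2.48% of cells, and Itgav pooled to 0.197 of Itgb5 and Itgb6 together. Per length, Itgb6 pooled to 0.860 of Itgb5 over all cells, but to 1.31 of it without the fibroblast-rich cells, so their order turns on those 6 cells. Itgb6 was then higher in 53.5% of the cells that were not fibroblast-rich.

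**Figure D4:**
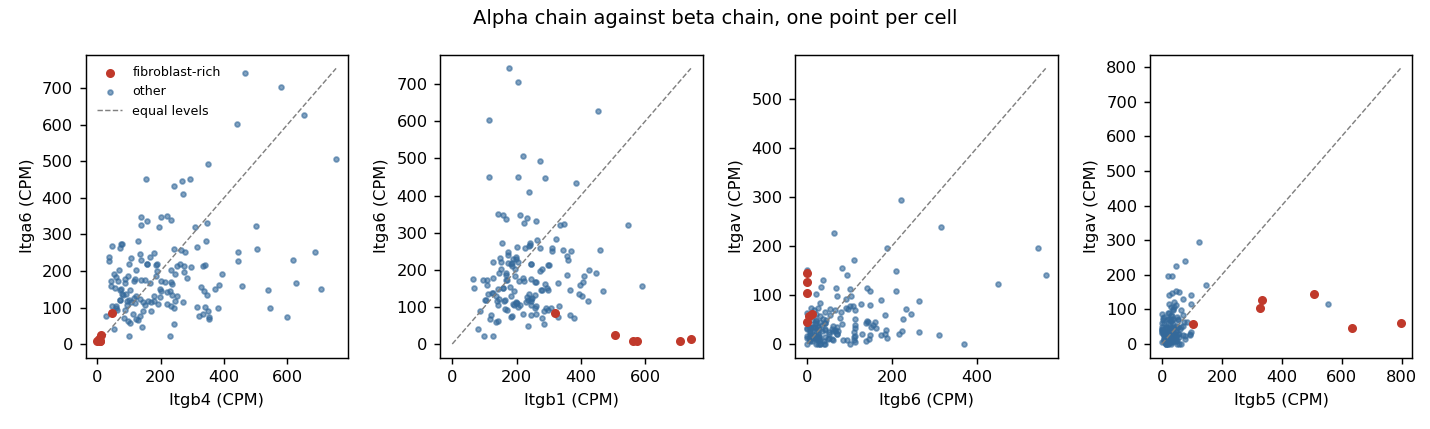
CPM of an α chain (vertical axes) against CPM of a β partner (horizontal axes), a point for each cell with at least 40000 UMIs (red, fibroblast-rich; blue, other; dashed line, equal levels). The Itga6 and Itgb4 points lie on both sides of the line, and the fibroblast-rich cells lie at low Itga6 with Itgb1 between 320 and 742 CPM and, in 5 of 6, at Itgb5 above 300 CPM.

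Dag1 (chromosome 9, 108204634 to 108263958) was found in every thinned cell and stood at 378 CPM (371 to 386). It ran from 117.1 through a median of 341 to 2069 CPM, with quartiles of 283 and 415. The 2069 CPM were in Acinar58 (452 UMIs of 218444), well above Acinar162 at 1105 and Acinar35 at 856 CPM. Acinar58 was also the highest cell for Itgb5 outside the fibroblast-rich ones, with 0 CPM of fibroblast genes and 15789 CPM of epithelial genes. Without it and the fibroblast-rich cells, the excess variation of Dag1 was 1.07, against 2.30 with them.

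By UMIs, with no correction for length, the genes of the dystroglycan complex were led by utrophin and dystrobrevin, not dystrophin. Utrn, the widely expressed relative of dystrophin, stood at 77.5 CPM with a UMI in 91.9% of thinned cells. Dtnb, a dystrobrevin, stood at 58.8 CPM, Sntb2, a syntrophin, at 33.9 and Sgcb, a sarcoglycan, at 14.2. Dmd, dystrophin itself, stood at 11.9 CPM in 27.3% of thinned cells. Of 13 genes of this complex, 3 were found in at least 1 in 2 thinned cells, against 25.4% of all genes with a UMI. The median level of the 13 was 8.48 CPM, against 1.62 over all genes with a UMI. Of 13 genes that build the laminin-binding sugars of dystroglycan, 12 had an entry. Of these, 7 were found in at least 1 in 2 thinned cells, against the same 25.4%. Pomgnt1, a glycosyltransferase of the first sugar steps, stood at 68.7 CPM, Rxylt1, which adds a xylose, at 55.8 and B3galnt2, which adds an N-acetylgalactosamine, at 39.6. Together these 12 genes held 351 CPM (344 to 358).

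Cd151 (chromosome 7, 141467392 to 141471473) stood at 116.9 CPM (112.9 to 120.96), with a UMI in 98.8% of thinned cells. It ran from 18.1 through a median of 110 to 292 CPM in cells with at least 40000 UMIs, the narrowest spread of the 10 by the excess measure. Its highest cells were Acinar178, Acinar108 at 288 and Acinar66 at 265 CPM. Of its exon bases, 193 overlap Gm10575 on the other strand, which had 52 UMIs. Among 20 other tetraspanins, 13 were found in at least 1 in 2 thinned cells, against 25.4% of all genes with a UMI. The highest were Tspan8 at 459 CPM, a tetraspanin of digestive epithelia, Cd81 at 379, Cd63 at 205, a protein of late endosomes, and Tspan1 at 178.1.

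In the 6 fibroblast-rich cells the set of chains was another one. A fold of at least 2 downward in the pooled CPM was found for 5 of the 10 genes, against 18.7% of 8532 genes with at least 500 UMIs, and a fold of at least 2 upward for 2 of 10, against 8.26%. Itgb5 stood at 425 CPM in the fibroblast-rich cells and 38.4 CPM in the others, a ratio of 11.1 (10.1 to 12.1). Its lowest, median and highest values were 105.2, 420 and 796 CPM in the fibroblast-rich cells, against 0, 30.3 and 554 CPM in the other thinned cells. Of those others, 98.1% lay below every fibroblast-rich cell. Itgb1 stood at 570 CPM in the fibroblast-rich cells and 234 CPM in the others, with 81.9% of the other thinned cells below all 6.

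Epithelial chains were low there. Itgb6 stood at 2.81 CPM in the fibroblast-rich cells, from 3 UMIs, and 86.3 CPM in the others, a ratio of 0.0325 with a counting interval of 0.00671 to 0.0951. Itgb4 stood at 13.1 CPM in the fibroblast-rich cells and 219 CPM in the others, and 96.1% of the other thinned cells lay above all 6. The β4 chain was thus near 0 in 5 of these 6 cells, with 44.9 CPM in Acinar188. Itga6 stood at 24.3 CPM in the fibroblast-rich cells and 194 CPM in the others, and Itga3 at 43.1 CPM in the fibroblast-rich cells and 279 CPM in the others. Itga2 stood at 95.5 CPM in the fibroblast-rich cells and 297 CPM in the others. It overlapped most: its fibroblast-rich cells ran from 0 to 230 CPM, and 87 of the other thinned cells (56.1%) lay above them all.

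The remaining 3 genes differed less. Itgav stood at 89.9 CPM in the fibroblast-rich cells and 47.7 CPM in the others, a ratio of 1.88 (1.53 to 2.30), and was found in 6 of 6 thinned. Cd151 stood at 77.7 CPM in the fibroblast-rich cells and 118.4 CPM in the others. Dag1 stood at 378 CPM in both, with cell medians of 356 CPM in the fibroblast-rich cells and 341 CPM in the other thinned cells.

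The pairs followed. Itga6 with Itgb4 was found in 0 of 6 fibroblast-rich cells, a count that still leaves room for 50% of such cells, and in 97.4% of the other thinned cells. Itgav with Itgb6 was also found in 0 of 6, against 56.8% of the others, while Itgav with Itgb5 was found in 6 of 6, against 45.2% of the others. Both counts of 0 are bound to the thinned depth. Before thinning, Itga6 had a UMI in 6, Itgb4 in 5 and Itgb6 in 2 of the 6 cells. Itgb1 exceeded the 4 α chains together in 6 of 6 fibroblast-rich cells, in which the α chains summed to 0.424 of Itgb1, against 3.55 in the others. This ratio covers only the 4 α chains and leaves out 14 other α genes. Those summed to a median of 102.6 CPM in the other cells and 795 CPM in the fibroblast-rich cells. Epithelial transcripts were present in these cells too: the 8 epithelial genes summed to a median of 834 CPM in the fibroblast-rich cells, against 15204 CPM in the others, and to 7105 CPM in Acinar188. Without Acinar188, Itga6 stood at 12.4 CPM, Itgb4 at 6.74, Itgb5 at 351 and Itgav at 95.5 in the fibroblast-rich cells. The count of genes at least 2-fold lower was then 5 of 10, against 20.3% of the 8532 genes with at least 500 UMIs. The count at least 2-fold higher was then 3 of 10, against 8.58%, the added gene being Itgav with a ratio of 2.002. The part of these epithelial transcripts in the chain levels was not tested.

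Over the thinned cells, all but the 18 left out, which share depth but are 1 library each, Itga2, Itga3, Itgb4 and Itgb6 varied together. Spearman's correlation, given as a description, was 0.50 for Itga2 with Itga3, 0.43 for Itga3 with Itgb4, 0.43 for Itga2 with Itgb6 and 0.38 for Itga3 with Itgb6. It was 0.35 for Itga2 with Itgb4 and 0.33 for Itgb4 with Itgb6. Over 7277 genes, the 99th percentile of the correlation with Itga2 was 0.32, with Itga3 0.36, with Itgb4 0.38 and with Itgb6 0.32. Without the fibroblast-rich cells the correlations ran from 0.28 to 0.46, and the mean within 8 blocks of cells with neighbouring title numbers ran from 0.32 to 0.52, though Itga2 with Itgb6 reached -0.12 in 1 block. On unthinned CPM the correlations ran from 0.40 to 0.57. Itgb1 had 0.16 to 0.25 with these 4 genes over the thinned cells. Without the fibroblast-rich cells it had 0.28 to 0.37 with them, inside their own range, so leaving it out of the group depends on those cells.

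Itga2, Itga3, Itgb4 and Itgb6 do not pair with one another. Among the chains that do pair, the values over the thinned cells were 0.22 for Itga6 with Itgb4, 0.16 for Itgav with Itgb6, 0.11 for Itgav with Itgb5 and -0.03 for Itga6 with Itgb1, and counts this sparse limit the αv values. The highest of these were Itgav with Itgb1 at 0.29 and the β1 pairs of Itga2 and Itga3 at 0.23 and 0.25. Without the fibroblast-rich cells these 3 were 0.24, 0.33 and 0.37, so that Itga2 and Itga3 with Itgb1 then exceeded Itga2 with Itgb4 at 0.30 and Itgb4 with Itgb6 at 0.28. On unthinned CPM the β1 pairs of Itgav, Itga2 and Itga3 had 0.38, 0.37 and 0.38. Itga6 with Itgb4 had 0.31, Itgav with Itgb5 0.25, Itgav with Itgb6 0.21 and Itga6 with Itgb1 0.02. Without the fibroblast-rich cells, unthinned values were 0.49 for Itga2 and 0.52 for Itga3 with Itgb1. The group that does not pair then ran from 0.34 to 0.54. Over the thinned cells, Dag1 had correlations between -0.16, with Itgb4, and 0.00 with the 9 other genes. Cd151 was between 0.21 and 0.25 with Itga2, Itga3, Itgb1 and Itgb4 and at 0.17 with Itga6.

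**Figure D5:**
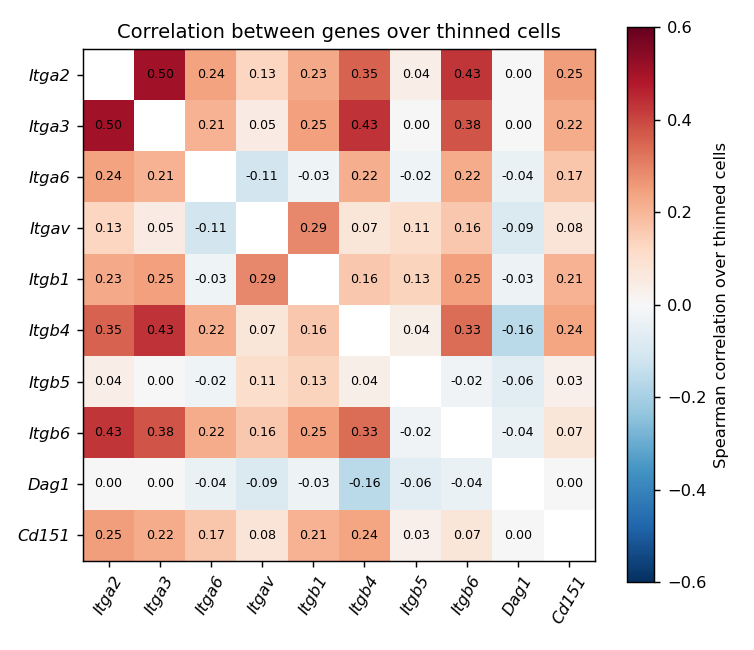
Spearman's correlation between the counts of each pair of genes over the thinned cells (colour and printed value; blank diagonal). Itga2, Itga3, Itgb4 and Itgb6 have values of 0.33 to 0.50 among themselves, and no value of Dag1 exceeds 0.00.

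For each gene the genes with the 3 highest correlations over the thinned cells were looked up, limited to genes averaging 1 UMI or more. Actn1, an α-actinin that crosslinks actin at adhesion sites, was nearest to Itga3 at 0.58 and the third for Itga2 at 0.46. The nearest genes of Itgb6 included Anxa3, an annexin, and Tpm1, a tropomyosin. For Itgb1 the nearest were Mast4, a kinase, at 0.57, Lamb1, a laminin chain, at 0.55 and Fn1, fibronectin, at 0.55. For Itgb4 they were Ctsd, a lysosomal protease, at 0.56, Agrn, the heparan sulfate proteoglycan agrin, at 0.53 and Fbxw9 at 0.51. Matrix ligands or adhesion proteins thus stood among the nearest 3 genes of Itga2, Itga3, Itgb1 and Itgb4, and of Itgav, which had Thbs1, the matrix protein thrombospondin, second at 0.43. For Itgb1 and Itgb4 this depended on the fibroblast-rich cells. Without them Lamb1 and Fn1 were at ranks 7 and 8 for Itgb1, both at 0.50, and Agrn at rank 13 for Itgb4, at 0.48. Actn1 then stayed at rank 1 for Itga3 and 3 for Itga2, and Thbs1 was at rank 3 for Itgav.

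Itga6 was nearest to S100a14, a calcium-binding protein of epithelia, at 0.46, Msln, mesothelin, at 0.44 and Gpr137b at 0.44. Itgav was nearest to Csf1, a macrophage growth factor, at 0.45, then Thbs1, and Clic4, a chloride intracellular channel protein, at 0.41. Itga2 had Slc4a11, a membrane transporter, second at 0.50, and Olfr1372-ps1, an olfactory receptor pseudogene, was the third for Itga3 at 0.49. Cd151 was nearest to S100a11 at 0.40, Rab7, a GTPase of late endosomes, at 0.33 and Sqstm1, an autophagy receptor, at 0.33. On unthinned CPM these 3 were 0.48, 0.18 and 0.36, so the place of Rab7 is tied to the thinned counts. The neighbours of Dag1 were Rprd1b, which binds the tail of RNA polymerase II, at 0.36, Ppa1, a pyrophosphatase, at 0.35 and AC135509.1 at 0.35. Their values on unthinned CPM were 0.28, 0.28 and 0.35. Nearest to Itgb5 were Igfbp7 at 0.34, Ccdc80 at 0.33 and Elk3, an ETS transcription factor, at 0.33. Ccdc80 depended on the fibroblast-rich cells: without them its correlation with Itgb5 was 0.10, rank 1087.

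Correlations with summed lists differed among the 10 genes. With the 26 genes of focal adhesions (talin, kindlin, filamin and actinin genes and their partners, no integrin among them), the correlation was 0.53 for Itga3, 0.50 for Itgb4, 0.50 for Itgb1, 0.47 for Itgb6 and 0.43 for Itga2. The 95th percentile over 7256 other genes was 0.30. It was 0.30 for Itgav, 0.26 for Cd151, 0.17 for Itgb5, 0.11 for Itga6 and -0.09 for Dag1. With the 11 laminin genes the values were 0.50 for Itga3 and Itgb4, 0.48 for Itgb1, 0.43 for Itga2 and 0.40 for Itgb6, against a 95th percentile of 0.32. Itgb6 had the highest value with 8 target and pathway genes of YAP, a mechanosensitive coactivator, at 0.38. Itga6 had the highest with the 8 epithelial genes, at 0.43, where Itgav had -0.26.

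Itgb4 and Cd151 had negative correlations with cycling genes, and Itgb1 with gastric pit genes. Itgb4 had -0.33 with 10 genes of the G2 and M phases, against a median of 0.02 over all genes, and Cd151 had -0.27. Itgb1 had -0.43 with 7 genes of gastric pit cells (trefoil and gastrokine genes among them), against a median of -0.03, and 0.894% of genes lay below it. Without the fibroblast-rich cells these 3 values were -0.39, -0.28 and -0.37.

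The linkers themselves were abundant. Of the 26 focal adhesion genes, 22 were found in at least 1 in 2 thinned cells, against 25.4% of all genes with a UMI. Among them were Actn4 at 622 CPM, Actn1 at 520 and Flna at 308, which all bind actin. Fermt1, the epithelial kindlin that activates β chains, stood at 193 CPM. In the hemidesmosome list, Lamb3 stood at 214 CPM, Plec, the plectin that links β4 to keratin, at 200 and Lama3 at 62.6. Col17a1, a transmembrane collagen of skin-type hemidesmosomes, stood at 0.323 CPM, from 9 UMIs, and Krt5 and Krt14, the basal keratins, at 0.108 and 4.92 CPM.

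Transcripts of ligands of these receptors were found in the same cells. The laminin list was led by Lama5 at 384 CPM, with Lamb3 at 214 and Lama4 at 90.1. Among other ligands, Spp1, an Arg-Gly-Asp phosphoprotein, stood at 1678 CPM, Cdh1, which binds integrin α2 besides its role between cells, at 459, Agrn, a dystroglycan ligand, at 419 and Fn1 at 226 CPM. Vtn, vitronectin, had 1 UMI in all cells. The spread of Fn1 was wide, with a median of 30.3 CPM and a highest cell of 4207, and it stood at 1810 CPM in the fibroblast-rich cells and 162.6 CPM in the others.

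All 19 other integrin and integrin-like genes had at least 1 UMI. The highest by UMIs, Itga1, a collagen receptor chain, stood at 49.1 CPM, within the counting interval of Itgav, and was found with Itgb1 in 74.5% of thinned cells. Itga5, the fibronectin receptor chain, stood at 37.6 CPM, but at 529 CPM in the fibroblast-rich cells and 17.9 CPM in the others. Itgae, the partner of β7 in lymphocytes, stood at 28.9 CPM, while Itgb7 stood at 1.22 and the immune list summed to 6.83 CPM. Itgb3, the β chain of the classic vitronectin receptor, stood at 257 CPM in the fibroblast-rich cells and 0.635 CPM in the others. Itgav with Itgb3 was accordingly found in 6 of 6 fibroblast-rich cells and 3 of the others (1.94%).

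The remaining integrin genes were rare. Itga11, Itga9 and Itga8 stood at 12.1, 6.90 and 6.22 CPM, and in the fibroblast-rich cells at 149.8, 94.6 and 127.3 CPM. Itgad, Itga2b, Itga10 and Itga7 stood at 3.92, 3.27, 1.87 and 1.76 CPM. Itgb8, an αv partner in other epithelia, stood at 1.04 CPM and was found with Itgav in 3.73% of thinned cells, and Itgbl1, an integrin-like gene, stood at 0.791 CPM. The chains of leukocyte integrins were near 0, with 14 UMIs of Itgam, 5 of Itgb2, 3 of Itgax, 2 of Itga4 and 1 of Itgal in all cells.

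Levels differed somewhat between blocks of 24 title numbers, which the labels do not explain. The sum of the 10 genes ran from 1675 CPM in cells 97 to 120, whose median depth was 43006.5 UMIs, to 2098 CPM in cells 49 to 72. Dag1 and Cd151 differed least between blocks, by ratios of 1.29 and 1.26 from the highest to the lowest. Itgb4 ran from 137.1 to 295 CPM, and Itgb5 from 26.2 to 109.1 CPM, the highest block being the last, which holds 2 fibroblast-rich cells.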

How the data were processed

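Per the labels, cells of organoids went through Smart-seq3 as the RNA arm of scNMT-seq; its methylation and accessibility arms were not analysed here. The authors deposited raw UMI counts and raw read counts per cell and gene, with no normalization. Per the submitters' processing notes, which give no versions, STAR and featureCounts were used with GRCm38 and mm10. The rule for collapsing UMIs and the use of strand are not given in the sources used here, and reads that fall in both of 2 overlapping genes could be assigned to either.

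All 179 cells passed a minimum of 1000 UMIs, and doublets were not searched for, each sample being 1 cell per the labels. CPM values are pooled UMI counts over pooled totals. Shares used cells thinned to 40000 UMIs. Fibroblast-rich cells have at least 1000 CPM of 10 fibroblast genes, and enzyme-rich cells at least 10000 CPM of 12 acinar genes. Reads per kb used the union of exons in the GENCODE annotation of GRCm38. For a share of 0 the upper limit is 3 counts of the total. No test was made, since all cells form 1 group with no animal or culture named.

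Genes named are the 10 members, every other integrin gene with a UMI and the 4 highest genes of each list of adhesion partners. The 3 nearest genes and the 3 highest cells of each member are named too. Dmd, Fermt1, Col17a1, Krt5, Krt14, Vtn, Ptf1a, Ctrb1, Prss2 and Clps were singled out after their values were seen. So were the cells Acinar52, Acinar58, Acinar171 and Acinar188. Some genes that the naming rule picked are not reported here. The members, lists and class limits were chosen with earlier results of these data known. The script for excess variation and correlation was tested on simulated data. Other settings covered reads, totals, thinning depth, detection, cell classes and title numbers. Python 3.11.15 was used with numpy 2.4.6, pandas 2.3.3, scipy 1.17.1 and matplotlib 3.10.9.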

Additional observations from a re-analysis of the deposited data

How the results depend on the processing

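The summed level of the 10 genes, 1886 CPM, was 1790 from read counts, 1860 with equal weight per cell and 1907 on a total without mitochondrial genes, all outside its counting interval, and stayed inside it under the 6 other settings. The mean of 5.62 pairs per cell was 4.70 when thinned to 20000 UMIs, 6.39 at 80000, 6.40 with no thinning and 4.56 with at least 2 UMIs of both chains. It stayed in its interval with another seed, without the fibroblast-rich cells and in either range of title numbers (5.68 up to 96, 5.57 from 97). Of single gene levels, 9 of 10 left their interval from read counts and 6 of 10 without the fibroblast-rich cells, where the lowest ratio to the main value was 0.721, for Itgb5. Of 45 correlations between the genes, none of at least 0.3 changed sign, 13 moved by more than 0.1 on unthinned CPM and 6 without the fibroblast-rich cells.

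Depth limits the αv pairs most, since 1 thinned UMI is 25 CPM and Itgav, Itgb5 and Itgb6 have medians of 1 to 2 thinned UMIs. Per exon length, a scale that can favour short exon sets, the ratio of the 4 α chains to the 4 β chains was 0.932 over all cells. It was 1.01 without the fibroblast-rich cells, and that of Itgb6 to Itgb5 was 0.860 and 1.31. The per-length ratios, the excess variation without the fibroblast-rich cells or the highest cell, and the 2-fold counts without Acinar188 were added after seeing the data. No paired analysis was possible because the cells form 1 group and no result comes from a test.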
